A study of Mus musculus with 32 samples.

Results

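The genes described here belong to 14 families of developmental transcription factors, chosen by their gene symbols: Hox, Sox, Pax, Fox, Tbx, Lhx, Pou, Dlx, Msx, Meis, Pbx, Klf, Eya and Six-type genes. On the 2 array designs, 124 probe sets for 110 genes carried exactly 1 such symbol, 67 on design a and 57 on design b, out of 13069 probe sets and 6137 gene symbols in all. Of these symbols, 4 name no factor of a family: Tbxa2r and Tbxas1 are a thromboxane receptor and a thromboxane synthase, Pou2af1 is a cofactor of Pou factors, and Hoxa11os is an antisense RNA.

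These families hold DNA-binding proteins that set the identity of cells and body regions in the embryo, except the Eya proteins, which act as coactivators with Six-type factors. Hox genes lie in 4 clusters and pattern the body axis together with cofactors of the Meis and Pbx families. In the mouse inner ear, Pax2, Pax8, Eya1 and Six-type factors act from the otic placode onward, Sox2 marks the prosensory cells from which hair cells and supporting cells arise, and Sox4 and Sox11 are needed for hair cells to form.

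Total RNA came from UB/OC-1 cells, which are mouse cells with a conditional immortalizing gene, made from the immature organ of Corti where hair cells form. The line carries a temperature-sensitive T antigen that keeps it dividing at the permissive temperature. Cells at 39 °C were differentiating by their labels and were taken early (days 1 to 3, n = 4), in the middle (days 4 to 7, n = 5) or late (days 8 to 14, n = 5), and undifferentiated cells at 33 °C were day 0 (n = 2). Experiment A gave days 0 to 9, 11 and 14, and experiment B gave days 0, 2, 4 and 9, with each culture on both designs. It is 1 line, every later day differs from day 0 in temperature as well as time, and the T antigen is known to depend on temperature, so these cannot be told apart. No label says how far cultures within an experiment were separate, so each p-value covers only how far these cultures spread, which may be technical, with the days of a phase standing in for replicates.

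Of 6 hair cell markers on the arrays 4 were above background on at least 2 of the 16, and the transcription factors Atoh1 and Gfi1 on none. Of 7 supporting cell markers 3 were, and Fgfr3, Gjb2 and Hes5 were not on any. The summed intensity of all supporting cell markers on the arrays was 1587 to 3171 late, against 822 to 880 at day 0, and that of hair cell markers was 1343 to 2085 late, against 816 to 1339 at day 0. Late against day 0, 1 of 6 supporting cell probe sets above background passed in limma (adjusted p under 0.05), and 0 of 5 for hair cells. The 1 was that of Cdkn1b, with a log2 difference of 1.59 ± 0.47 (limma adjusted p = 0.0337). The absolute size of each array's negative values, a measure of its noise, had a 75th percentile of 103 to 204 in experiment A and 68 to 160 in experiment B on design a. On design b it was 153 to 325 in experiment A and 75 to 160 in experiment B. Arrays, not sequencing depth, set the precision, and their number limits it.

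Family probe sets were above background less often than probe sets at large. Background was a floor for each design, 141 for design a and 198 for design b, set from the size of negative intensities. A probe set that exceeded its floor on 2 or more of 16 arrays was taken as measured, and 56 of 124 were (45.2%, exact 95% interval 36.2 to 54.3%), against 7728 of all 13069 probe sets (59.1%). At the other end, 58 of the 124 (46.8%) were above the floor on no array, against 34.7% of all probe sets. Only 11 (8.87%) were above it on all 16 arrays, against 21.9% of all probe sets. The shares differed in the same direction on both designs, at 52.2% against 65.8% on design a and 36.8% against 52.5% on design b. The interval covers counting error over probe sets only, and probe sets of 1 gene are not independent. Taken by gene with its best probe set, 53 of 110 genes were measured.

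The share varied by family. All 3 Meis probe sets, 5 of 6 for Klf and 6 of 8 for Pax were measured, and so were 2 of 3 for Eya, 2 of 3 for Msx and 4 of 6 for Tbx. The measured Tbx probe sets include those of Tbxa2r and Tbxas1, and the measured Hox probe sets that of Hoxa11os, none a factor of a family. The largest family, Hox, had 15 of 33, of which 5 of 11 were in cluster a, 5 of 10 in cluster b, 4 of 7 in cluster c and 1 of 5 in cluster d. Pou had 4 of 10, Dlx 3 of 6, the Six-type genes 2 of 6, Fox 5 of 19, Sox 4 of 15 and Lhx 1 of 4, and neither Pbx probe set was measured. Families this small leave wide intervals, 28.1 to 63.6% for Hox and 7.79 to 55.1% for Sox.

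**Figure D1:**
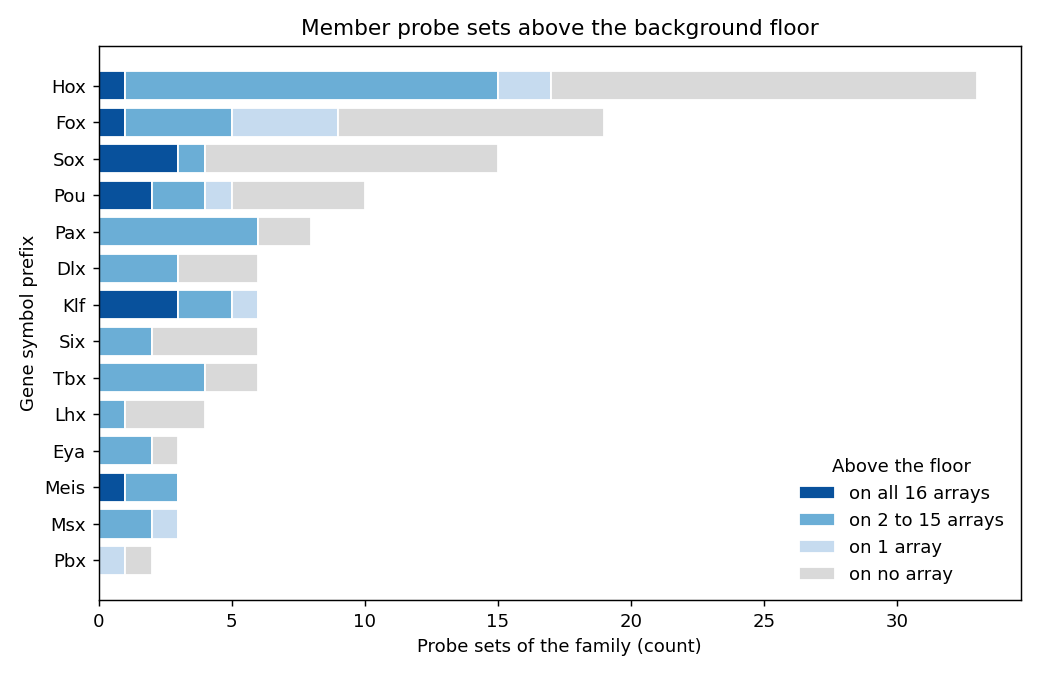
Number of probe sets of each family (x axis, count) that were above the background floor on all 16, on 2 to 15, on 1 or on none of the arrays, with families by symbol prefix on the y axis. Hox had 16 of 33 probe sets and Sox 11 of 15 on no array, while every Klf, Meis and Msx probe set was above the floor on at least 1.

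The probe sets above the floor on all arrays were those of Foxd3, Hoxb5, Klf1, Klf2, Klf4, Meis1, Pou2f3, Pou3f2, Sox11 and both of Sox4. Foxd3 is a neural crest factor and Pou2f3 a factor of tuft cells and skin. Among those on no array were Sox2, Pax6, Pou3f4, a factor of the otic mesenchyme, and Eya2. Also on no array were Lhx1, Lhx5, Lhx8, Dlx2, Dlx6, Hoxd13, all 3 probe sets of Six3 and both of Hoxa9. A probe set at the floor has only an upper bound, so this does not show that the gene was silent. Negative readings on all 16 arrays occurred for 21 of the 124 (16.9%), against 7.98% of all probe sets. Between measured and unmeasured, 10 probe sets were above the floor on exactly 1 array, among them Msx1, Foxa1, Foxa2 and Pbx3, and 9 on exactly 2, among them Pax8, Meis2, Klf10 and Eya3.

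Several genes had probe sets that disagreed. Of 13 genes with more than 1, 6 (Hoxc4, Hoxc5, Hoxd12, Pou6f1, Sox11 and Tbx2) had 1 measured probe set and another that never passed the floor. Tbx2, a T-box repressor, averaged 332 on its design b probe set and -986 on its design a probe set. Most of the family probe sets carry names ending in s_at or another such suffix, and these may also bind related transcripts. Without suffixes f_at, r_at, i_at, s_at and g_at, 35.7% of 28 were measured, and the same share over all probe sets was not taken.

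The share of family probe sets above the floor varied from culture to culture. It lay between 21.8 and 36.3% in experiment A and was 13.7% at day 0, 21% at day 2, 17.7% at day 4 and 32.3% at day 9 of experiment B. With each array's own noise as the floor, the range was 22.6 to 33.9%, and day 0 of experiment B then stood at 32.3%. That culture was thus the lowest with a common floor and among the highest with its own. Over all probe sets, with the common floor, it was also the lowest, at 44.2% on design a and 30.8% on design b. The highest arrays reached 50.8% and 40.4%, so the dip was not particular to the families.

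**Figure D2:**
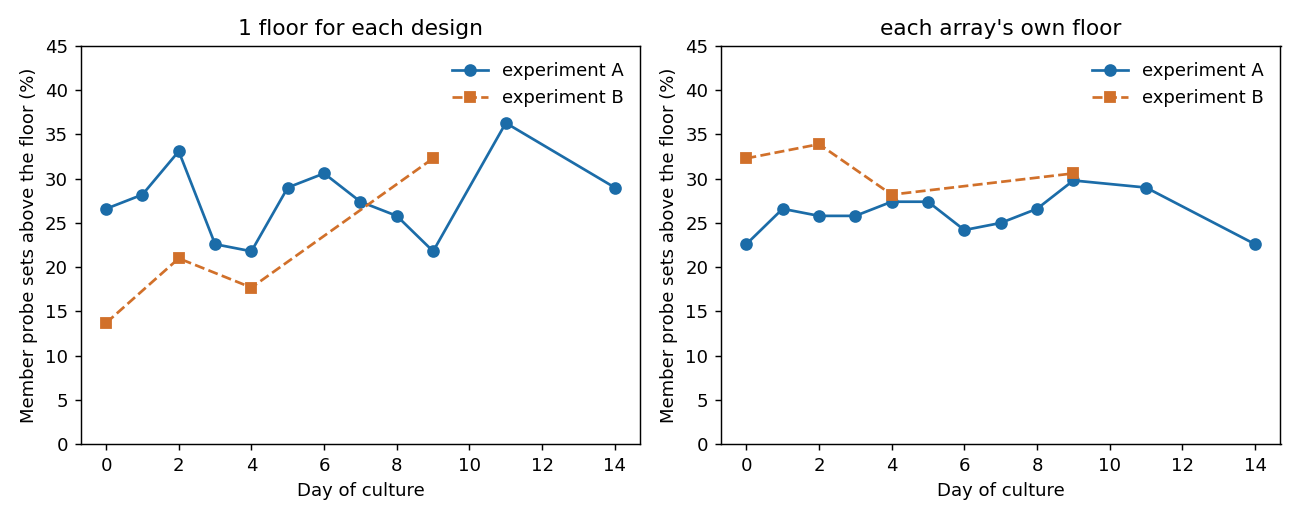
Share of the 124 family probe sets above the floor (y axis, %) by day of culture (x axis), for experiment A (circles) and experiment B (squares), with 1 floor for each design on the left and each array's own floor on the right. Day 0 of experiment B was lowest on the left, at 13.7%, and stood at 32.3% on the right.

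Few of the 56 measured probe sets passed a comparison, and with all cultures each that passed one with day 0 was higher later. With only 2 cultures at day 0, a probe set that did not pass may still have changed. These calls, though not the direction of their differences, depended on day 0 of experiment B. Without that culture, which leaves 1 at day 0, the late difference was 1.53 for Foxo3, 1.07 for Meis1 and 1.18 for Pou3f2. Foxo3 was then at 1.5 early and 2.17 in the middle, while Eya3 lay at -0.38 late. Against day 0, 1 of 56 passed early (adjusted p under 0.05 in limma), where 3.51% of all 7728 measured probe sets did, 1.45% upward. In the middle phase 1 of 56 passed, against 8.19% of all, 3.61% upward. Late, 3 of 56 passed (5.36%), against 10.9% of all, 4.84% upward. The 4 that passed the time course test, a smooth curve in day, were 7.14% of the 56, against 9.76% of all. Between late and early, both at 39 °C, 0 of 56 passed in limma, against 0.983% of all, and 3 did so at an unadjusted p under 0.05, against 10% of all. A probe set enters the 56 by being high somewhere, so these counts describe the measured members and not all 124. The comparisons with day 0 share the same 2 cultures.

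The samples were also paired by experiment, and with experiment as a block more of the 56 passed. They were 2 early, 4 in the middle and 4 late against day 0, and 7 over the time course, where 6.07%, 12.4%, 14.5% and 16.1% of all probe sets passed. Without the block, the median log2 difference of the 56 was 0.20 late against day 0, beside 0.11 for all measured probe sets. Of the 56, 42 (75%) lay above 0, beside 60.9% of all. The median late difference was 0.055 within experiment A and 0.35 within experiment B. The 2 experiments had the same sign for 25 of the 56 and opposite signs for 10, and for 21 the difference was 0 in at least 1 experiment.

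**Figure D3:**
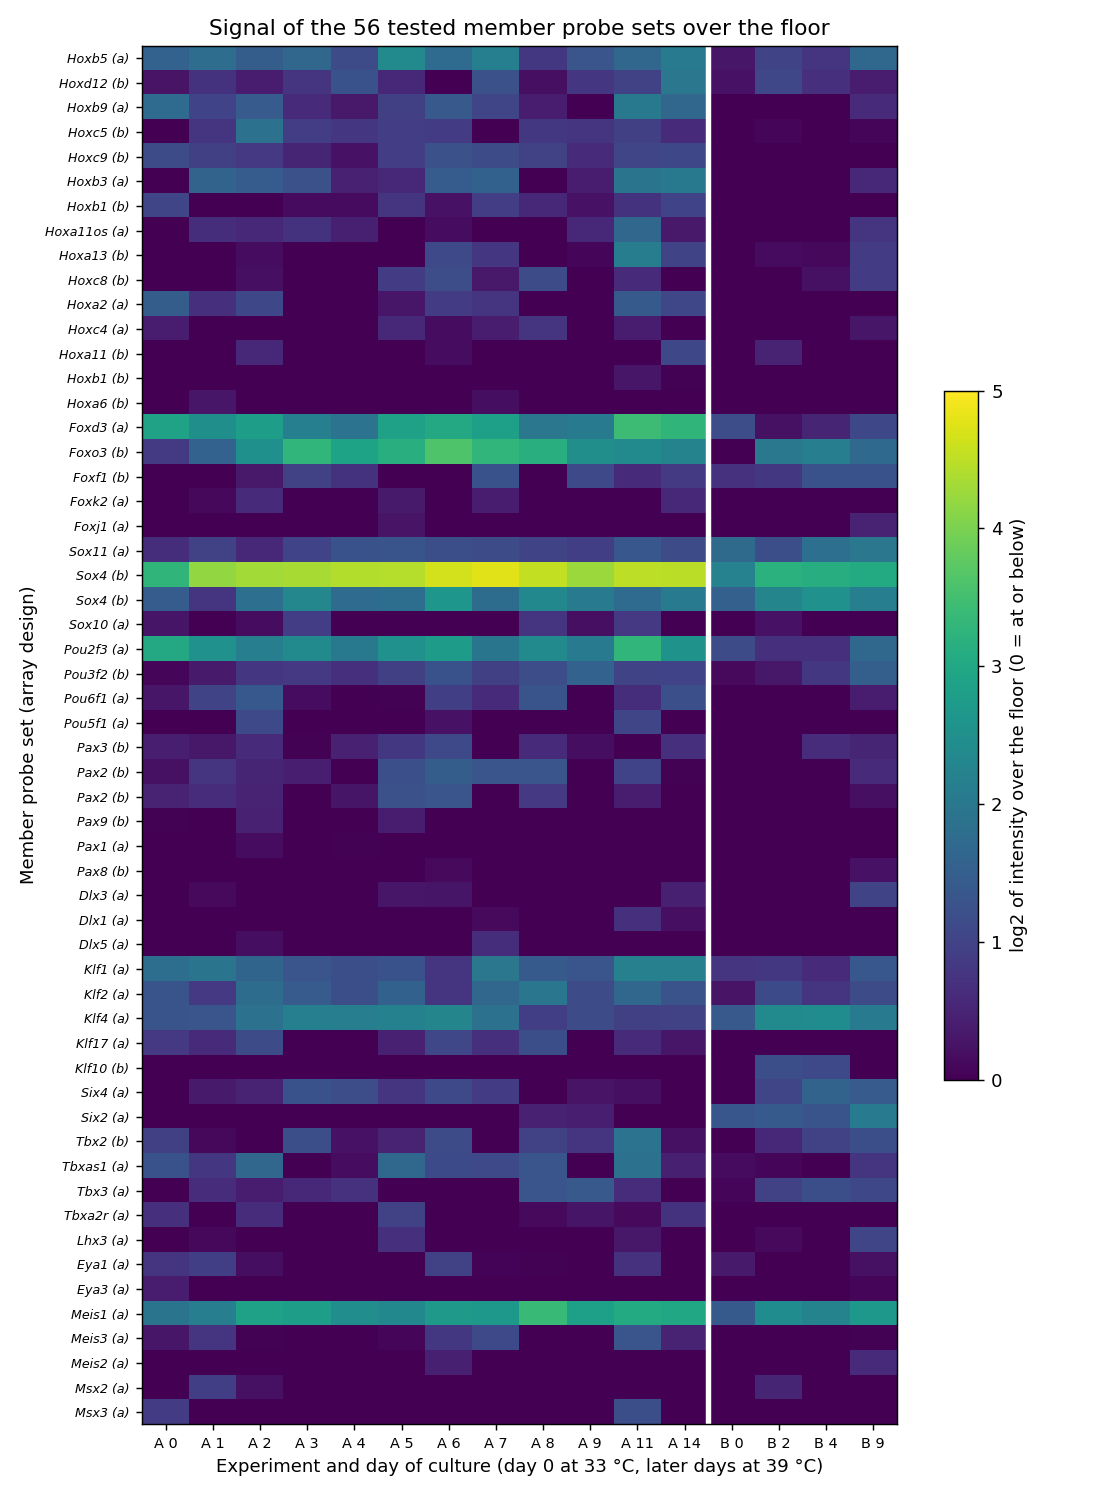
Log2 of intensity over the floor (colour, 0 at or below the floor) of the 56 measured family probe sets, grouped by family (y axis, array design in brackets), in each culture of experiment A and, right of the white line, experiment B (x axis, day). The 2 Sox4 probe sets, Foxo3, Meis1, Foxd3 and Pou2f3 give the brightest bands, and Six2 is above the floor on all 4 arrays of experiment B and on 2 of experiment A.

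Foxo3, Meis1 and Pou3f2 rose against day 0, and Sox4 did so with experiment as a block. Their promoters are shown for these 4 genes and for Klf4, which passed the time course test. Hoxa11, which passed it on 4 readings, and Six4, which passed it with the block, are described further on. Each sequence is the 250 bases before the start site of the first RefSeq entry listed for the gene, build GRCm38.p6, on the minus strand. Any other start site of these genes is not shown, and the array files were not used for positions. They lie at chr13:28953700-28953949 (Sox4), chr10:42276696-42276945 (Foxo3), chr11:19018970-19019219 (Meis1), chr4:22488367-22488616 (Pou3f2) and chr4:55532476-55532725 (Klf4). Capitals mark GGGCGG, the GC box that Sp and Klf factors bind, and CCAAT, the CCAAT box, on either strand.
Sox4: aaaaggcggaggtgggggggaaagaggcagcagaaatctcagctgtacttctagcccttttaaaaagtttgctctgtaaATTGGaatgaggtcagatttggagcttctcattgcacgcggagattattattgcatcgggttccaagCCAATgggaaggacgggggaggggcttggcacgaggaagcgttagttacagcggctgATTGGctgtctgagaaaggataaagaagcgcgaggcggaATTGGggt
Foxo3: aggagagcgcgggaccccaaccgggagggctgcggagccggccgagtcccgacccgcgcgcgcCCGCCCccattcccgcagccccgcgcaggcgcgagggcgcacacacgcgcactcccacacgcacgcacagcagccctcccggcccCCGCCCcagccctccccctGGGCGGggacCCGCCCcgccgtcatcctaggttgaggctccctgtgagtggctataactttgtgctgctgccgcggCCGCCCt
Meis1: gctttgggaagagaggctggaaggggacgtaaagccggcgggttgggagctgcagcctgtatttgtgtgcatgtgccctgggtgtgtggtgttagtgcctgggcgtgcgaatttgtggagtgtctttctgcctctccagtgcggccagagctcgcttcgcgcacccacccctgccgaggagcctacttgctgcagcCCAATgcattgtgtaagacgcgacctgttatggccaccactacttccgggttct
Pou3f2: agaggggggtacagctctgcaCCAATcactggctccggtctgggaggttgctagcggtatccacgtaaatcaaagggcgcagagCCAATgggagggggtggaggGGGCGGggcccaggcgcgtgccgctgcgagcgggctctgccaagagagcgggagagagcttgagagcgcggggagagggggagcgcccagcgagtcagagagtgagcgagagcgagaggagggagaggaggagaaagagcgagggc
Klf4: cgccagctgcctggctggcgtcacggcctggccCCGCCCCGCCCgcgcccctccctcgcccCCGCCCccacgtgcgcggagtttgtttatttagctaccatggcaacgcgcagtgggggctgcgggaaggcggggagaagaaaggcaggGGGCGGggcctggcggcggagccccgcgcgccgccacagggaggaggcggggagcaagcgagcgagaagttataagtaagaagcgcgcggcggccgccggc

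Foxo3 and Klf4 had GC boxes only, 5 and 4 of them, and 2 of those of Klf4 share a base. Sox4 and Meis1 had CCAAT boxes only, 4 and 1, and Pou3f2 had 1 GC box and 2 CCAAT boxes. None of the 5 held the TATA box TATAAA, the Meis motif TGACAG, the Sox motif AACAAT, the Fox motif GTAAACA or the Pou octamer ATGCAAAT on either strand. Over the families, 74 of the 110 genes matched 92 promoters in the RefSeq table. A GC box occurred in 53.3% of these, against 32.7% of all 32851 promoters, and a CCAAT box in 50%, against 33.8%. TATAAA occurred in 12% against 12.4%, TGACAG in 20.7% against 15.9%, AACAAT in 4.35% against 9.42%, GTAAACA in 1.09% against 3.17% and ATGCAAAT in 0% against 1.6%. Their median GC content was 60.4%, against 52.4% for all promoters. A match is a run of letters and not a site in use.

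Foxo3, a Fox factor of cell-cycle exit and stress resistance that Akt signalling keeps out of the nucleus, changed most. In experiment A its intensity was 357 at day 0, 590, 1130 and 1944 on days 1 to 3, 1469, 1738, 2450 and 1941 on days 4 to 7, and 1733, 1091, 1035 and 931 on days 8, 9, 11 and 14. In experiment B it was 84 at day 0, below the floor, then 798 at day 2, 875 at day 4 and 649 at day 9. Every later culture was above both day 0 cultures, with the highest readings in the middle of experiment A.

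The log2 difference of Foxo3 against day 0 was 1.92 ± 0.48 early (SE, limma adjusted p = 0.0309), 2.59 ± 0.47 in the middle (0.0014) and 1.96 ± 0.47 late (0.00934). These correspond to 3.79-fold, 6.03-fold and 3.89-fold higher readings, all low estimates since 1 day 0 array was at the floor. Its time course passed as well (adjusted p = 0.00173), but not within days 1 to 14 (adjusted p = 0.346), which leaves out both day 0 cultures. Within experiment A the late difference was 1.70 and within experiment B, with its day 0 at the floor, 1.71, both smaller than the joint value. Experiment B read lower on all 4 shared days and is 1 of the 2 day 0 cultures but 1 of 5 late ones. Without day 0 of experiment B the late difference was 1.53 (adjusted p = 0.198), the middle one 2.17 (0.0528) and the early one 1.5 (0.366).

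Meis1, a homeodomain cofactor of Hox proteins, was above the floor in all cultures. In experiment A it read 533 at day 0, 623, 1023 and 966 early, 769, 710, 914 and 894 in the middle, and 1474, 1004, 1179 and 1118 late. In experiment B it read 378 at day 0, 756 at day 2, 661 at day 4 and 891 at day 9. The late and day 0 readings did not overlap, and the late and early readings did.

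Late against day 0, Meis1 was higher by 1.32 ± 0.28 on the log2 scale (2.49-fold, limma adjusted p = 0.00437). Early and middle differences of 0.88 ± 0.29 (adjusted p = 0.123) and 0.80 ± 0.28 (0.0922) did not pass. Within experiments A and B the late difference was 1.15 and 1.24. Without day 0 of experiment B it was 1.07, with an adjusted p of 0.108.

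Pou3f2, also known as Brn2, is a Pou factor of neural progenitors. Experiment A gave 210 at day 0, 253, 344 and 352 early, 321, 381, 471 and 380 in the middle, and 447, 591, 405 and 397 late. Experiment B gave 217 at day 0, 246 at day 2, 346 at day 4 and 566 at day 9. Both day 0 readings were just over the floor of 198 and below every later one, and day 9 was highest in both experiments.

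Pou3f2 was higher late than at day 0 by 1.15 ± 0.32 on the log2 scale (2.22-fold, limma adjusted p = 0.0258), and its time course passed (adjusted p = 0.035). Close to the floor, the call moved with the processing. A higher floor left a late difference of 0.30 (adjusted p = 0.214), and quantile normalization one of 0.84 (0.126). It also missed the threshold without either day 0 culture (adjusted p of 0.12 and 0.149) or without day 9 of experiment A (0.0579). Of the other Pou probe sets, Pou3f3 was above the floor on 1 array, and Pou3f1 and Pou3f4 on none.

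Sox4, a gene of the SoxC group active in differentiating neural and sensory cells, was higher after day 0 within each experiment. Its Msa probe set read, in experiment A, 1906 at day 0, 3627, 3908 and 4014 early, 4227, 4323, 5027 and 5440 in the middle, and 4596, 3754, 4460 and 4404 late. In experiment B it read 920 at day 0, 1800 at day 2, 1707 at day 4 and 1637 at day 9. Within each experiment every later culture was above day 0, but all of experiment B read below day 0 of experiment A, so the pooled groups overlapped.

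Without regard to experiment, the Msa probe set of Sox4 missed the threshold, at 1.26 ± 0.49 early (limma adjusted p = 0.222), 1.54 ± 0.47 in the middle (0.0514) and 1.42 ± 0.47 late (0.0645). With experiment as a block the log2 differences were 0.95 ± 0.19 (adjusted p = 0.00595), 1.16 ± 0.19 (0.000509) and 1.04 ± 0.19 (0.00107), and all 3 passed. Within experiment A the late difference was 1.17 and within experiment B 0.83. Experiment A read higher on all 4 shared days, by 1.17 on average on the log2 scale.

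The other Sox4 probe set, w84196_s_at, ran the other way between the experiments. In experiment A it read 541 at day 0, 332, 703 and 985 early, 667, 694, 1222 and 673 in the middle, and 1005, 826, 662 and 839 late. In experiment B it read 574 at day 0, 960 at day 2, 1137 at day 4 and 869 at day 9. Experiment B was higher on all 4 shared days, by 0.34 on average on the log2 scale. Its late difference from day 0, 0.58 ± 0.40, did not pass (limma adjusted p = 0.448), while every late reading lay above both day 0 readings. This probe set did not pass with experiment as a block either. Sox11, the other SoxC gene measured, was 0.10 ± 0.38 late against day 0 (limma adjusted p = 0.925), and Sox10, a crest and glial factor, was above the floor on 7 arrays.

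**Figure D4:**
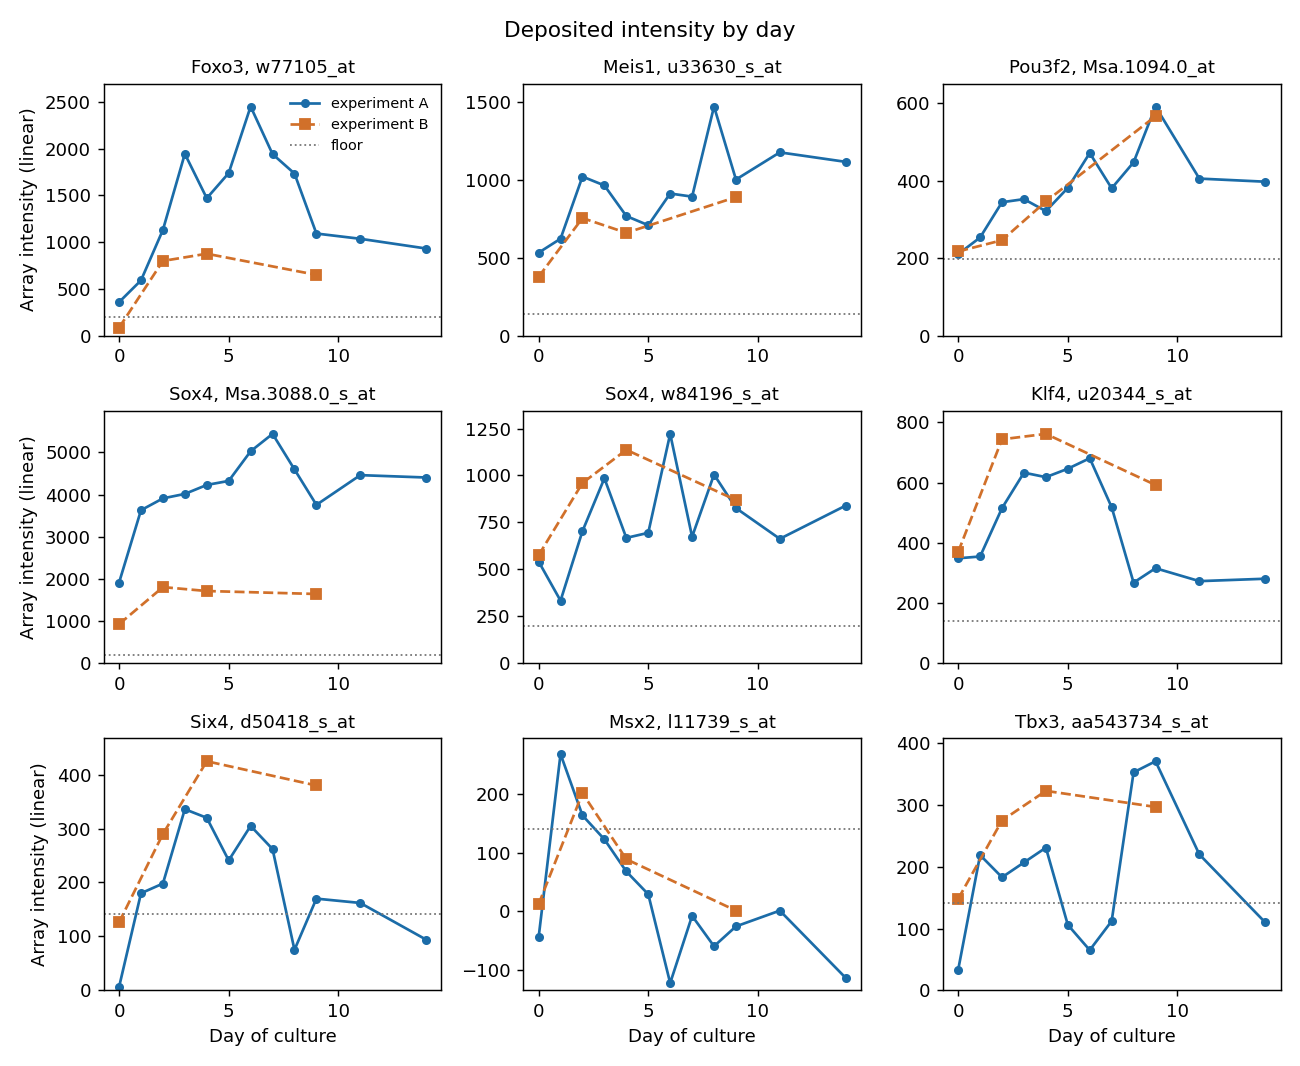
Deposited intensity (y axis, linear, scale differs by panel) against day of culture (x axis) for 9 family probe sets, in experiment A (circles, solid line) and experiment B (squares, dashed line), with the floor dotted. Foxo3 peaks at 2450 on day 6 of experiment A, Klf4 drops to 267 on day 8, and the 2 Sox4 probe sets order the experiments oppositely.

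Klf4, a zinc-finger factor of epithelial differentiation and of reprogramming to pluripotency, was high in the first week. Experiment A read 348 at day 0, 354, 515 and 633 early, 618, 646, 681 and 518 in the middle, and 267, 315, 272 and 280 late. Experiment B read 369 at day 0, 744 at day 2, 762 at day 4 and 592 at day 9. Late cultures of experiment A were below its day 0, while the late culture of experiment B was above.

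The time course of Klf4 passed (limma adjusted p = 0.036). Its middle difference from day 0 was 0.84 ± 0.36 on the log2 scale (adjusted p = 0.189), and 1.01 ± 0.28 with experiment as a block (0.0264). Late against early it was -0.72 ± 0.29 (adjusted p = 0.35). The time course call was lost in 12 of 16 fits that left out a culture, with adjusted p between 0.0151 and 0.0855. Klf2, an endothelial factor, had a log2 difference of 0.66 ± 0.39 late against day 0, which did not pass (adjusted p = 0.351). Klf10, a gene induced by TGF-beta, read 454 and 424 on days 2 and 4 of experiment B and was below the floor on the other 14 arrays.

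Six4, a homeobox factor of sensory placodes and muscle, was below the floor at day 0 and above it in the first week. Experiment A read 6 at day 0, 180, 198 and 336 early, 320, 241, 305 and 262 in the middle, and 75, 170, 162 and 94 late. Experiment B read 126 at day 0, 290 at day 2, 425 at day 4 and 380 at day 9. All early and middle readings were above the floor of 141. In the middle Six4 was at least 2.16-fold higher than at day 0 (log2 difference 1.11 ± 0.40, limma adjusted p = 0.0979), and with experiment as a block it passed (1.30 ± 0.32, adjusted p = 0.012). The blocked time course passed too (adjusted p = 0.0127, against 0.0754 without the block).

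Six2, a progenitor factor of kidney and mesenchyme, read 358, 374, 345 and 586 on days 0, 2, 4 and 9 of experiment B. In experiment A only days 8 and 9 were above the floor, at 194 and 189, and 7 readings were negative. Eya1, the coactivator whose loss causes branchio-oto-renal syndrome in humans, was above the floor on 9 arrays, at 241 and 181 at day 0. It was at -0.38 ± 0.31 late against day 0, which did not pass. Eya3 lay at -0.18 ± 0.09 (limma adjusted p = 0.264), resting on 1 reading of 185 at day 0 of experiment A and 1 of 147 at day 9 of experiment B. Without day 0 of experiment B its late difference was -0.38 (adjusted p = 0.0379), with experiment A alone it was -0.39 ± 0.10 (0.0294), and without day 0 of experiment A it was 0.01.

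Among Hox genes 0 of 15 measured probe sets passed any comparison with day 0 in limma, also at an unadjusted p under 0.05. Of all measured probe sets, 3.51% passed early, 8.19% in the middle and 10.9% late, and 15 are too few to set Hox genes apart. Late against day 0, 12 of 15 had log2 differences above 0, beside 60.9% of all. They ran from -0.25 for Hoxa2 to 0.99 for Hoxb3. Hoxb3, a gene of the hindbrain and neck, read 134, 186, 537 and 575 on days 8, 9, 11 and 14 of experiment A and 211 on day 9 of experiment B, against 129 and 120 at day 0 of experiments A and B. It was at least 1.98-fold higher (0.99 ± 0.57, adjusted p = 0.336), and 1 late reading was below the floor. Hoxb5 was above the floor on all 16 arrays, between 175 and 736.

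Hoxc5, a gene of the neck and trunk, on its g_at probe set was below the floor at day 0, at 115 and 135, and above it on all late arrays, between 207 and 381. Its early difference of 0.91 ± 0.44 did not pass (limma adjusted p = 0.397), and its second probe set was negative throughout. Hoxa11, a gene of limb and kidney, passed the time course test (adjusted p = 0.0282) on 4 readings above the floor, 294 and 276 on day 2 of experiments A and B, 221 on day 6 and 417 on day 14 of experiment A. Without day 14 its adjusted p was 0.656. The antisense Hoxa11os was above the floor on 9 arrays, and the strand that either probe set reads is not given in the sources used here.

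A rule chosen after the values were seen counted probe sets at the floor in both day 0 cultures and above it on at least 4 of 5 late arrays. It held for 5 of 56 (8.93%), against 3.91% of all measured probe sets, namely Hoxb3, Hoxc5, Hoxc8, Hoxa13 and Hoxa11os. All 5 were nevertheless above the own floor of the day 0 arrays of experiment B (91 on design a and 75 on design b), with 120, 135, 95, 197 and 118 in that order, so with that floor none met the rule. The reverse, above the common floor in both day 0 cultures and on at most 1 late array, held for 0 of 56, against 2.55% of all. None of the 5 passed late against day 0 in limma, also at an unadjusted p under 0.05, and their log2 differences ran from 0.53 for Hoxc8 to 0.99 for Hoxb3.

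**Figure D5:**
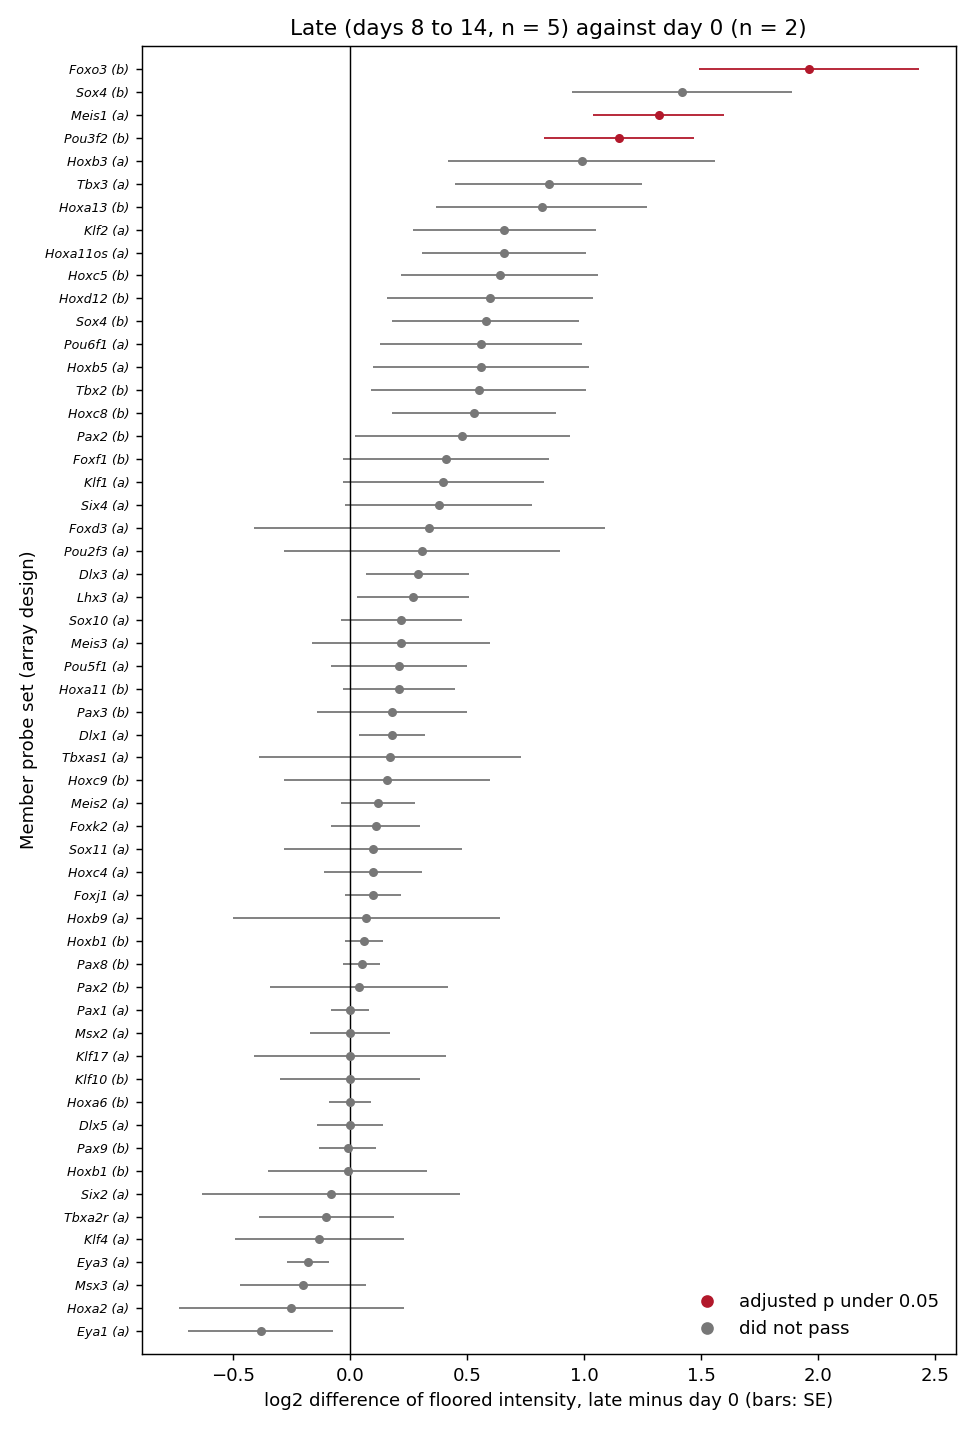
Log2 difference late minus day 0 (x axis, points, bars are SE) of the 56 measured family probe sets (y axis, array design in brackets), n = 5 late and 2 day 0 cultures. Foxo3, Meis1 and Pou3f2 (red) passed at an adjusted p under 0.05, and the Msa probe set of Sox4 has the second largest difference, 1.42, without passing.

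The Pax, Tbx, Msx, Dlx and Lhx probe sets gave no call in any of these limma comparisons, and at an unadjusted p under 0.05 only Tbx3 late and Msx2 early differed from day 0. Pax2, a factor of the otic vesicle, was measured by a pair of probe sets, at 0.48 ± 0.46 and 0.04 ± 0.38 late against day 0 (adjusted p = 0.593 and 0.979). Tbx3, a repressor known to hold back cell-cycle inhibitors, read 353, 371, 220 and 110 late in experiment A and 297 in experiment B, against 33 and 148 at day 0. Its readings dipped to between 65 and 112 on days 5 to 7 of experiment A, and the late difference, 0.85 ± 0.40, did not pass (limma adjusted p = 0.22). With a covariate for array noise, added after seeing the data, it was 1.00 ± 0.30 and passed (adjusted p = 0.03), as it did with the block and the covariate (0.99 ± 0.29, adjusted p = 0.0274).

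Msx2, a homeobox gene induced by BMP signalling, was above the floor on 3 arrays only. They were days 1 and 2 of experiment A, at 269 and 164, and day 2 of experiment B, at 202. It read -45 and 12 at day 0 and no higher than 1 late. With a lower floor it passed early against day 0 (1.51 ± 0.30, limma adjusted p = 0.00957) and late against early (-1.51 ± 0.23, adjusted p = 0.00393), and with the floor used here it passed neither (0.42 ± 0.17 and -0.42 ± 0.13, adjusted p = 0.27 and 0.192). Lhx3, a gene of hair cells and motor neurons in mouse, was above the floor on 5 arrays, with 291 on day 9 of experiment B as its highest reading.

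Cultures of experiments A and B differed in several of these genes at every shared day. Of the 56, 6 (10.7%) were higher in experiment A on all 4 days and 5 (8.93%) in experiment B, against 17.6% and 15.6% of all measured probe sets. Foxd3 read 1033, 969, 528 and 595 on days 0, 2, 4 and 9 of experiment A, against 320, 164, 202 and 298 in experiment B. Pou2f3 read 1149, 618, 573 and 594 in experiment A, against 310, 229, 229 and 448 in experiment B. Sox11 read 222, 211, 338 and 268 in experiment A, against 469, 326, 503 and 558 in experiment B. Readings of Foxd3 and Pou2f3 did not overlap between the experiments, those of Sox11 did, and array noise also differed between the experiments, whose part was not tested.

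Other gene lists were read beside the families, late against day 0. Of 55 measured probe sets for other developmental transcription factors, 9 were higher and 1 lower, where 4.84% of all were higher and 6.08% lower. Those higher were of Id2, Id4, Gata2, Gata3, Zfpm1, Tead3 and Cebpd, and Tead2 was lower. Id2, an inhibitor of basic helix-loop-helix factors, was higher by 2.45 ± 0.39 on the log2 scale (limma adjusted p = 0.000395), and Gata2 by 1.78 ± 0.34 (AB000096_g_at, 0.00156).

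Of 16 measured probe sets for partners and cofactors of the families, 1 was higher, that of Tle5, a Groucho-related corepressor (1.82 ± 0.42, limma adjusted p = 0.00707). Of 17 for Polycomb and Trithorax proteins, which hold Hox genes off or on, 3 were lower, where 6.08% of all measured probe sets were. They were those of Ezh2, Smarcc1 and Phc2, the last an f_at probe set that may also bind related transcripts. Ezh2, the methyltransferase of Polycomb complex PRC2, was lower, at -1.36 ± 0.17 (adjusted p = 4.62e-05). Of 11 for retinoic acid receptors and handling, 2 were higher. Aldh1a1, an enzyme that makes retinoic acid, was higher by 4.77 ± 0.48 (adjusted p = 6.3e-06), and Rarg by 1.32 ± 0.38 (0.0291) on a probe set shared by a gene family.

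Summed markers of other cell types varied between cultures, and not all of the lists reached higher late. The summed intensity of otic mesenchyme and fibroblast markers was 13147 to 27843 late, against 13664 to 15213 at day 0, and that of macrophage and blood markers was 4835 to 14348 late, against 2532 to 6633 at day 0. Endothelial markers summed to 742 to 1188 late, against 417 to 718 at day 0, and melanocyte and glial markers to 1518 to 3158 late, against 938 to 2179 at day 0. Otic neuron markers summed to 1188 to 1832 late, against 1535 to 2381 at day 0. Muscle markers summed to 6805 to 11101 late, against 7784 to 10883 at day 0. Above the floor on at least 2 arrays were 8 of 12 mesenchyme, 6 of 8 macrophage and blood, 4 of 6 endothelial and 4 of 8 melanocyte and glial genes on the arrays. For otic neuron genes it was 3 of 10 and for muscle genes 7 of 8. Of the defining markers, Csf1r and Adgre1 (macrophage), Pecam1 and Cdh5 (endothelium), Col1a2 and Lum (fibroblast) and Mitf and Kit (melanocyte) were above the floor on no array. The 7 measured macrophage and blood probe sets had a median log2 difference of 0.56 late against day 0, beside 0.11 for all measured probe sets, and of 11 for mesenchyme 1 was higher and 3 were lower in limma. The higher one was Dcn, a matrix proteoglycan of fibroblasts, with a log2 difference of 6.18 ± 0.89 (adjusted p = 0.000173). The 3 lower ones were of Fn1 and Vim. Fn1 lay at -1.76 ± 0.36 on design a and -1.68 ± 0.37 on design b, both f_at probe sets (limma adjusted p = 0.00294 and 0.00528). Vim lay at -1.65 ± 0.45 (adjusted p = 0.0243). Of 3 measured otic neuron probe sets, that of Gata3 was higher late (1.59 ± 0.46, limma adjusted p = 0.0311). That of Tubb3 was lower (-1.89 ± 0.36, limma adjusted p = 0.00171). The macrophage and blood, endothelial, melanocyte and glial, and muscle lists gave 0 calls late against day 0. Fewer cells of a type and less RNA per cell cannot be told apart in such bulk samples, and the part of these markers in the changes of the family genes was not tested.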

How the data were processed

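RNA of UB/OC-1 cells was hybridised to 16 arrays of each of 2 designs. The deposited values are intensities on a linear scale, scaled by the authors to a common trimmed mean, and 22.9% (design a) and 33% (design b) were below 0. The software behind them is not given in the sources used here. Groups and days came from the labels. Gene names came from the platform annotation, and all 124 matched RefSeq. The 55 control probe sets of each design were left out of the tests. Values below the 75th percentile of the absolute negative values of a design were set to it and log2 was taken. Probe sets above it on at least 2 of 16 arrays went into limma 3.58.1 under R 4.3.3 (trended, robust eBayes), 4 phases per design with 12 residual degrees of freedom. P-values were adjusted by Benjamini-Hochberg over both designs, two-sided, threshold 0.05. The time course used a moderated F-test of a natural spline with 3 terms for day. Ties at the floor hide spread, which can make p-values too small. No fold is set between probe sets. A fold against a group with all arrays at the floor is a lower bound, and with some at it a low estimate.

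The main fits did not pair the samples by experiment. Experiment was a block in an alternative fit, since differences between experiments A and B on shared days correlated across probe sets (r from 0.27 to 0.73 over 12 pairs of days). No arrays held identical values. Scripts were tested on simulated data. Members and gene lists were chosen with earlier results of these data known. Named probe sets were those that passed, the brightest of each family, the 5 largest rises and falls early and late, and genes with more than 1 measured probe set. Others were chosen after their values were seen. Alternatives covered floor, filter, scale, normalization, experiment, phase limits and single cultures. Promoters are RefSeq sequences of build GRCm38.p6.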

Additional observations from a re-analysis of the deposited data

Results flagged for a closer look

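In groups of 4 or 5 cultures, 18 of 72 tested groups held a culture whose log2 intensity (floored) lay far from the rest by Dixon's criterion, in a set where chance gives about 1 in 20. Many rest on a single reading above a floor that the others share.

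Experiment B stood apart from experiment A for several genes. The Msa probe set of Sox4 was lowest there, at 10.81 on day 2, 10.74 on day 4 and 10.68 on day 9. Six2 was highest there, at 8.55 on day 2, 8.43 on day 4 and 9.19 on day 9. On day 9 Klf4 stood at 9.21, Six4 at 8.57 and Eya3 at 7.20, each the highest of the late cultures.

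The others were single days of experiment A. Hoxa11 stood at 7.79 on day 6 and 8.70 on day 14. Hoxb1 stood at 7.77 on day 3 with probe set x53063_at, and at 7.64 on day 7 and 7.93 on day 11 with x53063_g_at. Dlx3 stood at 7.28 on day 1, Eya1 at 8.13 on day 6, Lhx3 at 7.81 on day 5 and Msx3 at 8.35 on day 11.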

How the results depend on the processing

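The number of family probe sets that passed depended on the setting. It was 1 early, 1 in the middle and 3 late against day 0, 0 late against early and 4 over the time course. With experiment as a replicate block it was 2 early, 4 in the middle and 7 over the time course. With experiment A alone it was 0, 3 and 2, and 2 late, with Eya3 the 1 lower in the middle and late. A lower floor gave 2 early, 1 late against early and 2 over the time course, and a higher floor 0 early and 2 in the middle. A filter on 8 arrays, quantile normalization and the arcsinh scale each gave 2 in the middle, and plain eBayes 3. With early as days 1 and 2 the counts were 0 early and 1 late against early. The time course within days 1 to 14 gave 1. A covariate for array noise, added after seeing the data, gave 2 early and 2 in the middle, and with the block 2, 4 and 5 against day 0 and 8 over the time course.

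Without 1 culture at a time the counts ranged from 0 to 1 early, 1 to 3 in the middle, 1 to 4 late, 0 to 1 late against early and 1 to 5 over the time course. Without day 0 of experiment B they were 0 early, 1 in the middle, 1 late and 1 over the time course, with the middle and late ones lower and no upward call against day 0 left, without day 0 of experiment A 1 over the time course, and without day 3 of experiment A 0 early, 1 late against early and 2 over the time course. Without day 2 of experiment A the early count was 0, without day 9 of experiment B the middle count was 3, and without days 2 or 4 of experiment B it was 2. Leaving out day 4 of experiment A, or else the day 2 culture of B, gave a time course count of 2. Over all measured probe sets the counts without 1 culture were 126 to 338 early, where all cultures gave 271, 321 to 718 in the middle (633), 402 to 929 late (844), 30 to 118 late against early (76) and 467 to 932 over the time course (754).

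The share of family probe sets measured, 45.2%, was 65.3% with a lower floor, 26.6% with a higher one and 35.7% without suffixed probe sets. The share over all probe sets was not taken at these settings, so the gap to it was not tested there.

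Directions turned in log2 differences that had not passed. Early, Six2 (-0.32) was 0.05 with the block, 0.04 with block and noise covariate, 0.58 on the arcsinh scale and 0.35 without day 0 of experiment B. Klf4 late (-0.13) was 0.04 with the block, with and without the noise covariate. Hoxa2 was 0.02 early and 0.08 late on the arcsinh scale, and 0.44 early and 0.49 late without day 0 of experiment A. Without that culture Hoxb1 early was 0.04, Msx3 late 0.24 and Eya3 late 0.01. The cause was not tested.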
